A study of Mus musculus with 3 samples.

Results

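Peripheral myeloid clusters of the naive mouse brain were described here, that is, the clusters of cells from brains without tumours that had the highest Lyz2 RNA and the highest H2-Aa RNA. The clusters were those of the deposited cell table. Cluster 0, which holds the microglia, and the cluster with the highest mean Cd79a, a B cell receptor component, were set aside. Of the remaining clusters, one had the highest mean Lyz2 and another had the highest mean H2-Aa. Barcodes that also stood in the table of metastasis-bearing brains were dropped. The Lyz2-high cluster then held 171 cells and the H2-Aa-high cluster 135 cells, together 306 of 2736 naive cells used, of 3874 naive cells deposited and of 13455 cells in the whole series.

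The study pooled 1 hemisphere from each of 8 female C57Bl/6 mice, 2 to 3 months old, after perfusion with PBS, enzymatic digestion and Percoll enrichment of immune cells. All 8 suspensions were stained with 35 barcoded antibodies and 1 hashtag each, and ran together through 10x Chromium 3′ v3 chemistry. The groups used here were naive Cx3cr1-/- brains (2 brains, with 33 and 103 of the 306 cells) and naive Cx3cr1+/- brains (2 brains, with 89 and 81 cells). The Cx3cr1+/- brains lack 1 allele themselves, and no Cx3cr1+/+ brain is among the labels. The mice that carried E0771 breast tumour cells, injected into the carotid artery about 2 weeks before, entered only through shared barcodes. A brain is named by its hashtag and counted as 1 replicate, so each genotype comparison sets 2 brains against 2 brains, and the comparison of surface gates rests on differences within the 4 brains. Cells were never counted as replicates.

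Monocytes are made in the bone marrow, leave it with the help of the chemokine receptor CCR2, and circulate as a Ly6C-high classical and a Ly6C-low nonclassical population. Neutrophils come from the same marrow, carry Ly6G on their surface and are rich in the calcium-binding proteins S100A8 and S100A9. Around the brain, the meninges, the perivascular spaces and the choroid plexus hold border-associated macrophages and dendritic cells, which present peptides to T cells on MHC class II molecules. CX3CR1, the fractalkine receptor, is strong in microglia and nonclassical monocytes and weaker in classical monocytes.

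Every cell owes its brain to a hashtag of 15 bases, and its surface phenotype to antibody tags of the same length, so the tags that decide the comparisons are shown first. The pooled hashtags differ from one another at 7 to 14 of the 15 positions.
M-HTO-5, the first Cx3cr1-/- brain: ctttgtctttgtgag
M-HTO-6, the second Cx3cr1-/- brain: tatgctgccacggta
M-HTO-1, the first Cx3cr1+/- brain: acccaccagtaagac
M-HTO-2, the second Cx3cr1+/- brain: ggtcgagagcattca
CD11b antibody: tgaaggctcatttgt
Ly6C antibody: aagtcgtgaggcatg
Ly6G antibody: acattgacgcaacta
I-A/I-E (MHC class II) antibody: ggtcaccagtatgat
The authors' surface gates, deposited as labels of each cell, rest on such antibody tags and not on the RNA that formed the clusters.

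Many cells of the Lyz2-high cluster went against their label as naive cells, and this bears on all that follows. Before the drop, 424 of its 595 deposited barcodes (71.3%) were also listed among the metastasis-bearing brains, against 48 of 183 (26.2%) in the H2-Aa-high cluster and 86 of 1320 (6.52%) in cluster 0. In 416 of the 424 shared Lyz2-high barcodes the hashtags of metastasis-bearing brains had the more UMIs, with medians of 4932 UMIs there and 32.5 UMIs for the hashtags of naive brains. The same held in 41 of the 48 shared H2-Aa-high barcodes, with medians of 1784.5 and 53 UMIs.

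The cells that stayed after the drop still differed in their tags. Of the 171 Lyz2-high cells, 110 had fewer than 200 naive hashtag UMIs, and in 92 of these 110 the tag UMIs that were neither antibody nor naive hashtag were more numerous than the hashtag UMIs. A low hashtag count alone was usual in cluster 0, where 1062 of 1234 cells had fewer than 200, with a median of 119.5 over the cluster. In 24 of these 1062 the remaining tag UMIs were the more numerous. The 424 shared Lyz2-high barcodes had medians of 32.5 naive hashtag and 54.5 remaining tag UMIs. A set of well-tagged cells was therefore formed after seeing the data, with at least 200 naive hashtag UMIs and more of them than of the remaining tag UMIs. It held 57 of 171 Lyz2-high cells, 9 and 11 in the Cx3cr1-/- brains and 21 and 16 in the Cx3cr1+/- brains. In the H2-Aa-high cluster it held 112 of 135 cells, 15 and 33 in the Cx3cr1-/- brains and 29 and 35 in the Cx3cr1+/- brains. The 57 well-tagged Lyz2-high cells had medians of 1291 hashtag UMIs, 22 remaining tag UMIs and 8858 RNA UMIs. The other 114 Lyz2-high cells had medians of 39 hashtag UMIs, 1637.5 remaining tag UMIs and 38101 RNA UMIs. Poor tagging and large libraries thus went together in this cluster, and results on it are given for all cells and for well-tagged cells.

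**Figure D1:**
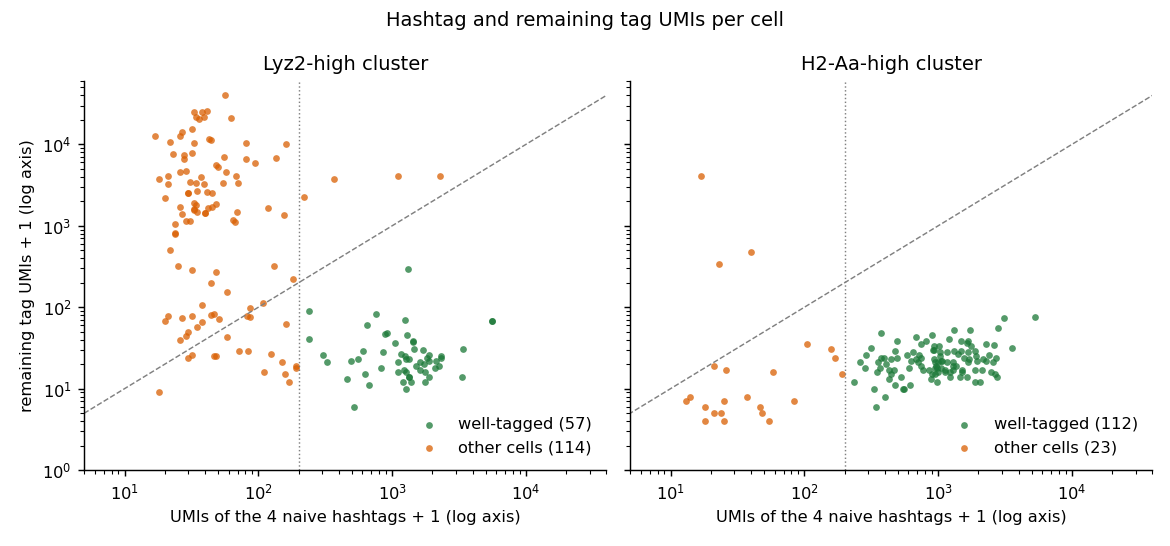
Hashtag and remaining tag UMIs of each of the 306 cells, each plus 1 on log axes, for the Lyz2-high and the H2-Aa-high cluster, with well-tagged cells and other cells in different colours; the dotted line is at 200 hashtag UMIs and the dashed line marks equal numbers. The 114 other Lyz2-high cells have medians of 39 hashtag and 1637.5 remaining tag UMIs, whereas 112 of the 135 H2-Aa-high cells are well-tagged.

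Cx3cr1, the targeted gene, checks the genotype of each brain. In the H2-Aa-high cluster it had 31.8 and 10.99 CPM (the UMIs of a gene as a share of all corrected UMIs of a cluster and brain, on the usual CPM scale) in the Cx3cr1-/- brains, against 543 and 428 CPM in the Cx3cr1+/- brains. In cluster 0 it had 75.6 and 71.4 CPM in the Cx3cr1-/- brains, against 1953 and 1852 CPM in the Cx3cr1+/- brains. The groups were far apart in each, as the labels require. The fall in the H2-Aa-high cluster was 4.05 on the log2 scale (log2 change -4.05, SE 0.35, limma adjusted p = 2.24e-05, all log2 values on the log2(CPM + 10) scale). Among well-tagged H2-Aa-high cells Cx3cr1 had 0 and 11.2 CPM in the Cx3cr1-/- brains, against 579 and 411 CPM in the Cx3cr1+/- brains, and the call held (-5.09, limma adjusted p = 8.6e-07). Without a variance trend in the test it did not hold (limma adjusted p = 0.158).

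In the Lyz2-high cluster Cx3cr1 was low to begin with. It had 27.6 and 33.8 CPM in the Cx3cr1-/- brains, against 95.8 and 133 CPM in the Cx3cr1+/- brains, without overlap. The difference of -1.60 (SE 0.33) did not pass over 7081 genes (limma adjusted p = 0.656), nor did it among well-tagged cells (-2.16, limma adjusted p = 0.368). With the shared barcodes put back it passed (-3.09, limma adjusted p = 0.00709). EGFP, a transgene feature of the gene table described here after its values were seen, had 13.8 and 16.1 CPM in Lyz2-high cells of Cx3cr1-/- brains, against 5.64 and 2.90 CPM in Cx3cr1+/- brains. In cluster 0 EGFP had 49.8 and 59.2 CPM in the Cx3cr1-/- brains, against 31.8 and 35.2 CPM in the Cx3cr1+/- brains.

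The clusters were chosen by the mean RNA of Cd79a, Lyz2 and H2-Aa, whose values are given as a description only. Mean Lyz2, the lysozyme of myeloid cells, was 4.06 in the Lyz2-high cluster as the natural log of 1 plus the corrected UMIs, and the next value was 2.92, in the H2-Aa-high cluster. Mean H2-Aa, the alpha chain of the class II molecule I-A, was 3.59 in the H2-Aa-high cluster, with 2.75 in the B cell cluster that was set aside and 1.84 in the Lyz2-high cluster. Mean Ccr2 was 1.20 in the Lyz2-high and 0.922 in the H2-Aa-high cluster, and mean Cd74, the invariant chain that guides class II molecules, was 2.66 in the Lyz2-high and 4.59 in the H2-Aa-high cluster.

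Over the 4 brains, Lyz2 averaged 11205 ± 1393 CPM in the Lyz2-high cluster, 6638 ± 2024 CPM in the H2-Aa-high cluster and 330.3 ± 47.8 CPM in cluster 0 (SD, n = 4 brains). Ccr2 averaged 414 ± 61.9 CPM in the Lyz2-high and 346 ± 134 CPM in the H2-Aa-high cluster, which overlapped, and 4.28 ± 0.890 CPM in cluster 0. H2-Aa averaged 2437 ± 781, 7887 ± 463 and 20.4 ± 1.63 CPM in the Lyz2-high cluster, the H2-Aa-high cluster and cluster 0. Ccr2 UMIs were found in 71.3% of Lyz2-high and 57.8% of H2-Aa-high cells, beside 3.08% of cluster 0 cells, at median depths of 23923, 7555 and 7197 RNA UMIs.

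The leading genes of the Lyz2-high cluster mixed genes of neutrophils and of inflammatory monocytes. The largest ratios over all other naive cells were those of S100a8 (15142 against 25.5 CPM, log2 ratio 8.74) and S100a9 (log2 ratio 8.58), which form calprotectin. Chil3, a chitinase-like protein of classical monocytes and neutrophils, followed with a log2 ratio of 6.26, then Lcn2 (5.86), which binds bacterial siderophores, and Hp (5.57), haptoglobin. Cxcl9, an interferon-gamma-induced chemokine that attracts T cells, stood at 5.34, G0s2, a lipase inhibitor, at 5.28, and Plac8, a monocyte-rich gene, at 4.81. The 15 genes were completed by Wfdc21, Slpi, Ifitm6, Ms4a4c, Clec4e, Fabp5 and Msrb1. Among well-tagged cells 11 of the 15 stood again, and Retnlg, Mmp8, Mmp9 and Hdc came in where Cxcl9, Ms4a4c, Clec4e and Fabp5 dropped out.

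The H2-Aa-high cluster led with lectins of dendritic cells and macrophages and with the class II genes. Mgl2, a galactose-type lectin, had 363 CPM against 2.19 CPM in all other naive cells (log2 ratio 4.94), and Cd209a, a DC-SIGN relative, had 355 against 5.43 CPM (4.57). H2-Eb1 (4.48), H2-Ab1 (4.44), Cd74 (4.35) and H2-Aa (4.34) followed. Pf4, a platelet-type chemokine that border macrophages also make, stood at 4.32, Apoe, the lipid carrier, at 4.14, and Mrc1, the mannose receptor, at 3.97. Tnip3, Clec10a, Clec12a, Clec4b1, Plbd1 and Rnase6 completed the 15, of which 14 stood again among well-tagged cells.

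The label "peripheral" fitted the clusters only in part. Pf4, Mrc1 and Ms4a7 mark border macrophages, which live at the edges of the brain itself. All 10 border macrophage markers were above 10 CPM in the H2-Aa-high cluster, beside 6 in the Lyz2-high cluster and 1 in cluster 0. Summed over the list they had 1051 to 2036 CPM over the 4 brains in the H2-Aa-high cluster and 704 to 1980 CPM in the Lyz2-high cluster, which overlapped. Cluster 0 had 17.3 to 81.9 CPM. In the Lyz2-high cluster the sum was led by Ms4a7, F13a1 and Clec4n, and Cd209f was at 0. F13a1 also stands in the list of classical monocytes and Ms4a7 in that of monocyte-derived macrophages. The border macrophage gate held 0 of 171 Lyz2-high cells, so the overlap of the sums does not place border macrophages in that cluster. Microglia markers were present in the H2-Aa-high cluster as well. Their summed level was 2908 to 5011 CPM over the 4 brains in the H2-Aa-high cluster, 792 to 1400 CPM in the Lyz2-high cluster and 18860 to 21459 CPM in cluster 0, and none of the 10 was at 0 in either.

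**Figure D2:**
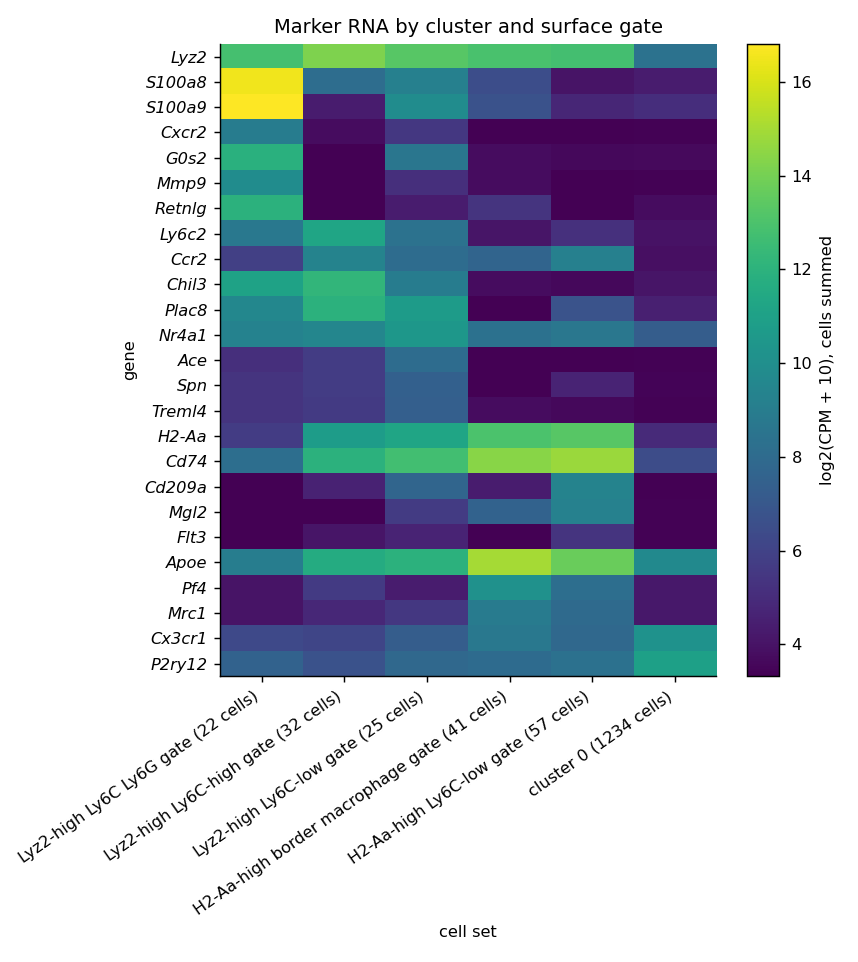
Heat map of marker RNA as log2(CPM + 10), genes in rows, in cells summed over the 4 brains for the surface-gated subsets of both clusters and for cluster 0 (columns, with their cell numbers). S100a8 is highest in the Ly6C Ly6G gate, with 92628 CPM, Ly6c2 in the Ly6C-high gate, with 2402 CPM, and H2-Aa and Cd74 in the 2 columns of the H2-Aa-high cluster.

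Surface gates split the Lyz2-high cluster into the blood myeloid populations. Gates of CD11b+ cells took 79 of 171 cells, with 22 in the Ly6C Ly6G gate, 32 in the Ly6C-high gate and 25 in the Ly6C-low gate. A further 28 fell in the authors' adaptive immune gate, 13 in the microglia gate, none in the border macrophage gate and 51 in none of these. Among well-tagged cells 51 of 57 were in the CD11b+ gates, against 28 of 114 other cells. The adaptive immune gate held 1 well-tagged cell of 28, and its cells had medians of 43947 RNA UMIs and 5713 remaining tag UMIs.

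RNA followed these gates, described here in cells pooled over the 4 brains. The Ly6C Ly6G gate carried the neutrophil genes: S100a8 had 92628 CPM there, against 268 CPM in the Ly6C-high and 567 CPM in the Ly6C-low gate. Retnlg, a resistin-like protein of neutrophils, had 4022, 0 and 10.1 CPM in the same gates, Mmp9, a gelatinase, 940, 0 and 25.3 CPM, and Cxcr2, the neutrophil chemokine receptor, 498, 3.57 and 35.4 CPM. Ly6g, which encodes the gated protein, had 554, 0 and 0 CPM in the Ly6C Ly6G, Ly6C-high and Ly6C-low gates. Over all Lyz2-high cells outside the Ly6C Ly6G gate it had 75.9 and 5.03 CPM in the Cx3cr1-/- brains, against 7.10 and 7.08 CPM in the Cx3cr1+/- brains. Median depths were 3970.5, 20635 and 8612 RNA UMIs in the Ly6C Ly6G, Ly6C-high and Ly6C-low gates.

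The Ly6C-high gate carried classical monocyte genes and the Ly6C-low gate nonclassical ones. Ly6c2, which encodes the gated protein, had 417, 2402 and 329 CPM in the Ly6C Ly6G, Ly6C-high and Ly6C-low gates. Ccr2 had 49.8, 635 and 258 CPM, and Chil3 2135, 4691 and 506 CPM. Ace, the angiotensin-converting enzyme, a marker of nonclassical monocytes, had 24.9, 42.8 and 263 CPM, and Nr4a1, the nuclear receptor those cells depend on, 629, 728 and 1401 CPM. Lyz2 itself was highest in the Ly6C-high gate (19138 CPM), against 7321 CPM in the Ly6C Ly6G and 10265 CPM in the Ly6C-low gate. H2-Aa had 43.6, 1746 and 2393 CPM, so class II RNA of this cluster lay outside the Ly6C Ly6G gate.

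**Figure D3:**
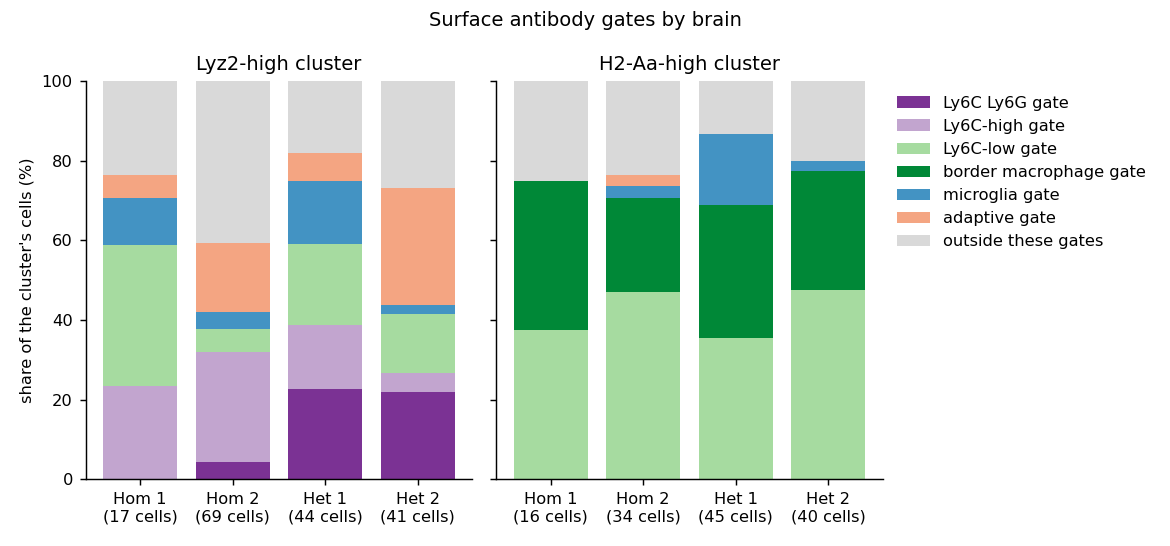
Share of each brain's Lyz2-high cells (left) and H2-Aa-high cells (right) in the authors' surface gates, as stacked bars in percent of the cluster's cells, 1 bar per brain (Hom, Cx3cr1-/-; Het, Cx3cr1+/-). The Ly6C Ly6G gate holds 0% and 4.35% of Lyz2-high cells in the Cx3cr1-/- brains and 22.7% and 22.0% in the Cx3cr1+/- brains.

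Well-tagged and other Lyz2-high cells also differed in their RNA, brain by brain. Lyz2 had 14103 and 15975 CPM in well-tagged cells of the Cx3cr1-/- brains and 15135 and 12815 CPM in those of the Cx3cr1+/- brains, and the other cells had 11735 and 10297 CPM, then 7914 and 7810 CPM. Well-tagged cells were the higher in 4 of 4 brains. Ace was likewise higher in well-tagged cells of 4 of 4 brains, with 195, 62.9, 177 and 146 CPM there (hashtags M-HTO-5, M-HTO-6, M-HTO-1 and M-HTO-2 in turn) and 41.1, 34.2, 47.1 and 4.38 CPM in the other cells.

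Some class II, interferon-induced and macrophage genes went the other way. H2-Aa had 947 and 1027 CPM in well-tagged cells of the Cx3cr1-/- brains and 305 and 94.6 CPM in those of the Cx3cr1+/- brains, while the other cells had 3560 and 2677 CPM, then 2683 and 5194 CPM. Cxcl9 had 0, 681, 0 and 8.60 CPM in well-tagged cells of the 4 brains and 1479, 1077, 1208 and 1868 CPM in the other cells. Cxcl10, a second chemokine of that family, had 529, 1289, 1142 and 60.2 CPM in well-tagged and 1493, 3076, 2720 and 1851 CPM in other cells. These 3 genes, with Cd74, Cd274 (PD-L1, an inhibitory ligand), Apoe, Ms4a7 and Fcgr1 (the high-affinity IgG receptor), were lower in well-tagged cells of 4 of 4 brains. Ms4a7 and Fcgr1 were taken up after their values were seen. The share of all genes higher or lower in 4 of 4 brains was not counted. The 2 sets of cells also differed in their gates, the Ly6C Ly6G gate holding 19 of 57 well-tagged and 3 of 114 other cells. The part of this gate in the RNA differences was not tested.

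In pooled cells the other Lyz2-high cells resembled the barcodes shared with the metastasis table. Cxcl9 had 148 CPM in well-tagged, 1308 CPM in other and 1157 CPM in the 424 shared cells. H2-Aa had 508, 3306 and 3203 CPM, and Ms4a7 136, 1222 and 1275 CPM, in that order of cells. Arg1, an enzyme of tumour-associated macrophages, was listed at 0 in well-tagged cells and had 68.7 and 63.6 CPM in other and shared cells. S100a8 ran opposite, with 32831, 7382 and 3209 CPM. A Krt8-high cluster of 136 cells, with 650 CPM of this epithelial keratin against 8.01 CPM in cluster 0, also stood in the table of naive cells, and had medians of 50.5 naive hashtag and 345 remaining tag UMIs. Whether cells of tumour-bearing brains are among the 114 other cells was not tested beyond these values.

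**Figure D4:**
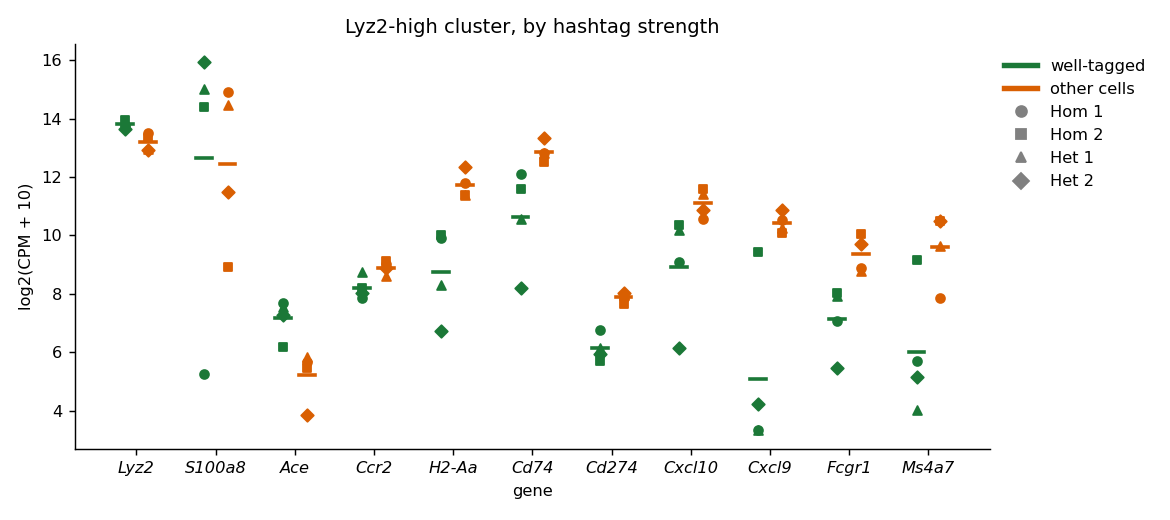
RNA of selected genes as log2(CPM + 10) in well-tagged cells and other cells of the Lyz2-high cluster, each point 1 brain (Hom, Cx3cr1-/-; Het, Cx3cr1+/-) and each bar the mean of the 4 brains. Lyz2 and Ace are higher in well-tagged cells of 4 of 4 brains, and H2-Aa, Cxcl9 and Cxcl10 are lower in 4 of 4.

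Surface gates of the H2-Aa-high cluster were those of border macrophages and of CD45-high, Ly6C-low CD11b+ cells. The border macrophage gate held 41 of 135 cells and the CD45-high gate 57, with 10 in the microglia gate, 1 in the adaptive immune gate and 26 in none. No cell fell in the Ly6C-high or the Ly6C Ly6G gate. Of the gated cells 38 of 41 and 56 of 57 were well-tagged, and median depths were 4903 and 11477 RNA UMIs. The border macrophage gate held 37.5% and 23.5% of the cluster in the Cx3cr1-/- brains, against 33.3% and 30% in the Cx3cr1+/- brains, a difference of -1.15 percentage points (2-sided exact permutation test over brains, p = 1, the smallest possible being 0.33).

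Both gates occurred in every brain, so they were compared within brains, a comparison added after the data were seen. The border macrophage gate held 6 and 8 cells in the Cx3cr1-/- brains and 15 and 12 in the Cx3cr1+/- brains. In the CD45-high gate there were 6 and 16 cells, then 16 and 19. The minimum of 10 cells per brain set for each cluster was not applied to the gates. Of 7551 genes, 9 (0.119%) passed an adjusted p of 0.05 in limma on the 4 within-brain differences, all lower in the border macrophage gate, and 587 had an unadjusted p under 0.05. The count was 350 without the first and 0 without the second Cx3cr1-/- brain, and 0 with no variance trend. Wfdc17, a small secreted protein of myeloid cells, had 229, 81.8, 151 and 71.6 CPM in the border macrophage gate (hashtags M-HTO-5, M-HTO-6, M-HTO-1 and M-HTO-2 in turn), against 1515, 680.2, 431 and 617 CPM in the CD45-high gate (log2 difference -2.49, SE 0.34, limma adjusted p = 0.000228). Crip1, a small LIM protein, averaged 354 ± 73.8 CPM in the border macrophage gate and 1672 ± 699 CPM in the CD45-high gate (SD, n = 4 brains, limma adjusted p = 0.000821). For both genes, the 4 brains of each gate did not overlap with those of the other.

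Dendritic cell and cytokine genes were among the remaining calls. Cd209a had 0, 0, 18.9 and 11.9 CPM in the border macrophage gate, against 0, 769.8, 931 and 481 CPM in the CD45-high gate (-3.95, SE 0.64, limma adjusted p = 0.00135). It was lower in 3 of 4 brains, both gates of the first Cx3cr1-/- brain being at 0, and without the second Cx3cr1-/- brain the limma adjusted p was 0.916. Il1b, the inflammatory cytokine, averaged 458 ± 255 CPM in the border macrophage gate and 1615 ± 556 CPM in the CD45-high gate (-1.86, limma adjusted p = 0.00895). Lsp1, a leukocyte actin-binding protein, Bhlhe40, a transcription factor, Olfm1, Ccl9, a chemokine, and S100a4 completed the calls with log2 differences of -2.38, -3.06, -3.13, -1.87 and -1.98, lower in 4 of 4 brains except S100a4, lower in 3 of 4.

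Border macrophage genes did not pass. Pf4 had 413, 687, 1000 and 2018 CPM in the border macrophage gate, against 885, 194, 117 and 312 CPM in the CD45-high gate, higher in 3 of 4 brains (1.58, limma adjusted p = 0.154). Apoe was higher in the border macrophage gate in 4 of 4 brains, with means of 32553 ± 2099 and 15243 ± 10030 CPM (1.40, limma adjusted p = 0.182). Of 8 border macrophage markers tested, 5 had positive and 3 negative differences with none called, and their median was 0.16 against -0.13 over all genes. Of 8 markers of type 2 conventional dendritic cells, 7 had negative differences, 1 of them called, with a median of -1.52. Of 21 immediate early and dissociation stress genes 19 had positive differences (median 0.80) and all 6 cycling markers had negative ones (median -1.77), none of them called, and their part in the calls was not tested. H2-Aa did not pass between the gates (log2 difference -0.11, SE 0.36, limma adjusted p = 0.968), nor did Cd74 (-0.13).

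Border macrophage and dendritic cell genes were counted cell by cell. UMIs of Pf4 or Mrc1 without Cd209a or Flt3, a growth factor receptor of dendritic cells, were found in 67 of 135 H2-Aa-high cells. Cd209a or Flt3 alone were found in 21, both kinds in 25 and neither in 22. Of the cells with Cd209a or Flt3 UMIs, 25 also held Pf4 or Mrc1 UMIs and 21 did not, beside 67 and 22 of the cells without them. Pf4 or Mrc1 UMIs were thus less frequent in cells with Cd209a or Flt3 UMIs than in the other cells. Within the border macrophage gate the counts were 34, 0, 2 and 5 of 41 cells, and within the CD45-high gate 26, 9, 16 and 6 of 57 cells. The first Cx3cr1-/- brain, with 16 cells, had 12, 0, 1 and 3, so it held 1 cell with Cd209a or Flt3 UMIs. Doublets were not called here.

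Class II genes stood together among the leading genes of the H2-Aa-high cluster, and some of their promoters share a motif. The promoters of H2-Aa and of H2-Eb1, the beta chain of I-E, are shown as they carry the Y box, one of the elements of class II promoters, here searched as CTGATTGG on both strands and printed in capitals (RefSeq, GRCm38.p6, from 250 bases before to 50 after the annotated start).
H2-Aa, chr17:34287774-34288073, minus strand: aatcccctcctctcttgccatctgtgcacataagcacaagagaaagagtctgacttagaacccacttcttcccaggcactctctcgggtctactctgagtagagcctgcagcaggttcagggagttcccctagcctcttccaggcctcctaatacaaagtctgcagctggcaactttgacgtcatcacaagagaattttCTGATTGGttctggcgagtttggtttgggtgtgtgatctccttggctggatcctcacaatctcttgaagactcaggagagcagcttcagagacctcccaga
H2-Eb1, chr17:34305617-34305916, plus strand: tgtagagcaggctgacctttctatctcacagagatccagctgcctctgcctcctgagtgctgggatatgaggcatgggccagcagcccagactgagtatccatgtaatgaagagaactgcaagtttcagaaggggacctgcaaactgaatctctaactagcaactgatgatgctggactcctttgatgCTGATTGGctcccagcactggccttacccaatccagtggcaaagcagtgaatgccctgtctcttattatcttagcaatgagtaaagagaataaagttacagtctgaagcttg
The motif begins at -51 in H2-Aa and at -62 in H2-Eb1, and its last letters hold the reverse complement of the CCAAT core. It was also found in the windows of H2-Oa (at -46) and H2-Eb2 (at -103). Of the 13 genes of the class II list 10 were matched to promoters, 11 promoters in all, and 1346 of all 32851 promoters (4.10%) held the motif on either strand. A match describes these letters and shows no binding.

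Genes that hold the motif differed widely in level. H2-Eb1 averaged 6809.7 ± 558 CPM in the H2-Aa-high cluster, 1943 ± 689.7 CPM in the Lyz2-high cluster and 15.2 ± 2.25 CPM in cluster 0 (SD, n = 4 brains). H2-Oa, a chain of the peptide-loading modulator H2-O, had 63.6 and 106 CPM in H2-Aa-high cells of the Cx3cr1-/- brains and 63.0 and 95.8 CPM in those of the Cx3cr1+/- brains. H2-Eb2 was listed at 0 in H2-Aa-high cells of all 4 brains. In Lyz2-high cells outside the Ly6C Ly6G gate it had 20.7 and 3.35 CPM in the Cx3cr1-/- brains, against 10.6 and 7.08 CPM in the Cx3cr1+/- brains.

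Shares of each brain's cells were compared by genotype, over all cells and over the cells outside cluster 0. Both clusters together made up 9.79% (95% Wilson interval 7.06 to 13.4) and 11.4% (9.47 to 13.6) of cells in the Cx3cr1-/- brains, against 9.30% (7.62 to 11.3) and 15.1% (12.3 to 18.4) in the Cx3cr1+/- brains. The ranges overlapped, with a difference of -1.61 percentage points (2-sided exact permutation test, p = 1). Lyz2-high cells were 5.04% and 7.62% in the Cx3cr1-/- brains, against 4.60% and 7.64% in the Cx3cr1+/- brains (difference 0.218 points, exact permutation p = 1). H2-Aa-high cells were 4.75% and 3.76% against 4.70% and 7.45% in the same order of genotypes (difference -1.82 points, exact permutation p = 0.667). Well-tagged cells of both clusters were 7.12% and 4.86% in the Cx3cr1-/- brains, against 5.22% and 9.50% in the Cx3cr1+/- brains (difference -1.37 points, exact permutation p = 0.667). Over the cells outside cluster 0 the genotypes did not overlap, with 17.4% and 19.1% for both clusters in the Cx3cr1-/- brains, against 19.3% and 26.1% in the Cx3cr1+/- brains (difference -4.48 points, exact permutation p = 0.33, the smallest possible). H2-Aa-high cells were 8.42% and 6.30% of the cells outside cluster 0 in the Cx3cr1-/- brains, against 9.74% and 12.9% in the Cx3cr1+/- brains (difference -3.96 points, exact permutation p = 0.33). Wilson intervals cover counting error only.

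Within the Lyz2-high cluster the gates differed by genotype as far as 4 brains can show. The Ly6C Ly6G gate held 0 of 17 and 3 of 69 cells (0% and 4.35%) in the Cx3cr1-/- brains, against 10 of 44 and 9 of 41 cells (22.7% and 22.0%) in the Cx3cr1+/- brains. The 2 genotypes did not overlap, and the difference was -20.2 percentage points, with the smallest p that 2 brains against 2 allow (2-sided exact permutation test, p = 0.33). Among well-tagged cells the gate held 0% and 18.2% in the Cx3cr1-/- brains, against 38.1% and 56.3% in the Cx3cr1+/- brains (difference -38.1 points). With shared barcodes included the values were 2.00% and 6.50% in the Cx3cr1-/- brains, against 17.6% and 10.5% in the Cx3cr1+/- brains (difference -9.80 points).

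The Ly6C-high gate lay the other way. It held 23.5% and 27.5% of Lyz2-high cells in the Cx3cr1-/- brains, against 15.9% and 4.88% in the Cx3cr1+/- brains (difference 15.1 points, exact permutation p = 0.33). Among well-tagged cells the groups overlapped, with 22.2% and 54.5% in the Cx3cr1-/- brains, against 28.6% and 12.5% in the Cx3cr1+/- brains (difference 17.8 points, exact permutation p = 0.667). The Ly6C-low gate held 6, 4, 9 and 6 cells of the 4 brains (exact permutation p = 1).

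RNA levels were then compared by genotype in both clusters together, in each cluster and against cluster 0. Both clusters together gave 2 calls among 7544 genes (0.0265%), with 308 at an unadjusted p under 0.05. Cx3cr1 fell (-2.97, SE 0.24, limma adjusted p = 0.00156), and so did Retnla (-3.83, SE 0.35, limma adjusted p = 0.00292). Both Cx3cr1-/- brains were below both Cx3cr1+/- brains for 12% of the genes and above them for 20.8%. The Lyz2-high cluster alone gave 0 calls among 7081 genes (0%) in limma, with 315 at an unadjusted p under 0.05. The H2-Aa-high cluster gave 2 among 7747 (0.0258%), with 403 at an unadjusted p under 0.05, again Cx3cr1 and Retnla. With 1 brain left out, a genotype rests on a lone brain assumed to vary like the others, and the counts in both clusters together were 149 and 256 without the first and the second Cx3cr1-/- brain and 4 without either Cx3cr1+/- brain.

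Neutrophil genes of the Lyz2-high cluster were lower in the Cx3cr1-/- brains without passing the test. All 10 neutrophil markers had negative log2 differences, with a median of -1.49 against 0.09 over all genes, and none was called. For 8 of the 10 both Cx3cr1-/- brains were below both Cx3cr1+/- brains, against 12.1% of all genes. Summed over the list they had 42593 and 10968 CPM in the Cx3cr1-/- brains, against 70990 and 62197 CPM in the Cx3cr1+/- brains. Fewer neutrophils and less RNA in each neutrophil cannot be told apart in such sums.

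G0s2 came closest to a call. It had 89.7 and 204 CPM in the Cx3cr1-/- brains, against 1251 and 1291 CPM in the Cx3cr1+/- brains (-3.13, SE 0.35, limma adjusted p = 0.0626). Among well-tagged cells it had 167 and 367 CPM in the Cx3cr1-/- brains, against 1124 and 3397 CPM in the Cx3cr1+/- brains, and there it passed (-2.93, limma adjusted p = 0.0298). The groups were apart in both settings.

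Mmp9 had 6.90 and 41.8 CPM in the Cx3cr1-/- brains, against 301 and 273 CPM in the Cx3cr1+/- brains (-3.33, SE 0.48, limma adjusted p = 0.270). Cxcr2 had 0 and 30.5 CPM in the Cx3cr1-/- brains, against 231 and 122 CPM in the Cx3cr1+/- brains (-3.15, limma adjusted p = 0.512). Csf3r, the receptor of the neutrophil growth factor G-CSF, had 104 and 133 CPM in the Cx3cr1-/- brains, against 335 and 261 CPM in the Cx3cr1+/- brains (-1.26, limma adjusted p = 0.669). In each of these 3 genes the genotypes did not overlap.

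S100a8 and S100a9 differed between the 2 Cx3cr1-/- brains. S100a8 had 15601 and 3688 CPM in the Cx3cr1-/- brains, against 27503 and 22891 CPM in the Cx3cr1+/- brains (-1.72, limma adjusted p = 0.975). S100a9 had 14407 and 4549 CPM in the Cx3cr1-/- brains, against 33806 and 28187 CPM in the Cx3cr1+/- brains (-1.93, limma adjusted p = 0.737). The first Cx3cr1-/- brain had no cell in the Ly6C Ly6G gate, yet 4 of its 17 cells held S100a8 UMIs. Camp, a granule peptide of immature neutrophils, had 6323 CPM in that brain, from 2 cells, with 1186 CPM in the second Cx3cr1-/- brain, against 2581 and 3727 CPM in the Cx3cr1+/- brains. That brain's well-tagged cells had 27.8 CPM of S100a8 and its other cells 30918 CPM.

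Outside the Ly6C Ly6G gate, a split made after the values were seen, the neutrophil list summed to 42593 and 1424 CPM in the Cx3cr1-/- brains, against 35566 and 6929 CPM in the Cx3cr1+/- brains, which overlapped. Of its 10 markers Retnlg, Mmp9 and Cxcr2 were lower in both Cx3cr1-/- brains and the other 7 overlapped. The share of all genes lower in both Cx3cr1-/- brains was not counted outside this gate, so these markers have no background to be set against. Over the remaining 17 and 66 cells of the Cx3cr1-/- brains and 34 and 32 of the Cx3cr1+/- brains, G0s2 had 89.7 and 127 CPM, against 859 and 354 CPM. Retnlg had 0 and 159 CPM in the Cx3cr1-/- brains, against 1589 and 595 CPM in the Cx3cr1+/- brains. S100a8 overlapped there, with 15601 and 486 CPM in the Cx3cr1-/- brains, against 14095 and 2855 CPM in the Cx3cr1+/- brains.

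Classical monocyte genes of the Lyz2-high cluster had mostly positive differences. Of 9 markers 8 were positive and none was called, with a median of 0.51 against 0.09 over all genes, and for 5 of the 9 both Cx3cr1-/- brains were above both Cx3cr1+/- brains, against 21% of all genes. Chil3 had 3079 and 2821 CPM in the Cx3cr1-/- brains, against 1538 and 1668 CPM in the Cx3cr1+/- brains (0.88, SE 0.20, limma adjusted p = 0.766). Ly6c2 had 2195 and 1588 CPM in the Cx3cr1-/- brains, against 944 and 1064 CPM in the Cx3cr1+/- brains (0.89, SE 0.24, limma adjusted p = 0.886). Both were also apart outside the Ly6C Ly6G gate, Chil3 with 3079 and 2699 CPM in the Cx3cr1-/- brains, against 1667 and 1601 CPM in the Cx3cr1+/- brains. Nonclassical monocyte markers were split, 4 positive and 5 negative of 9, with a median of -0.03.

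**Figure D5:**
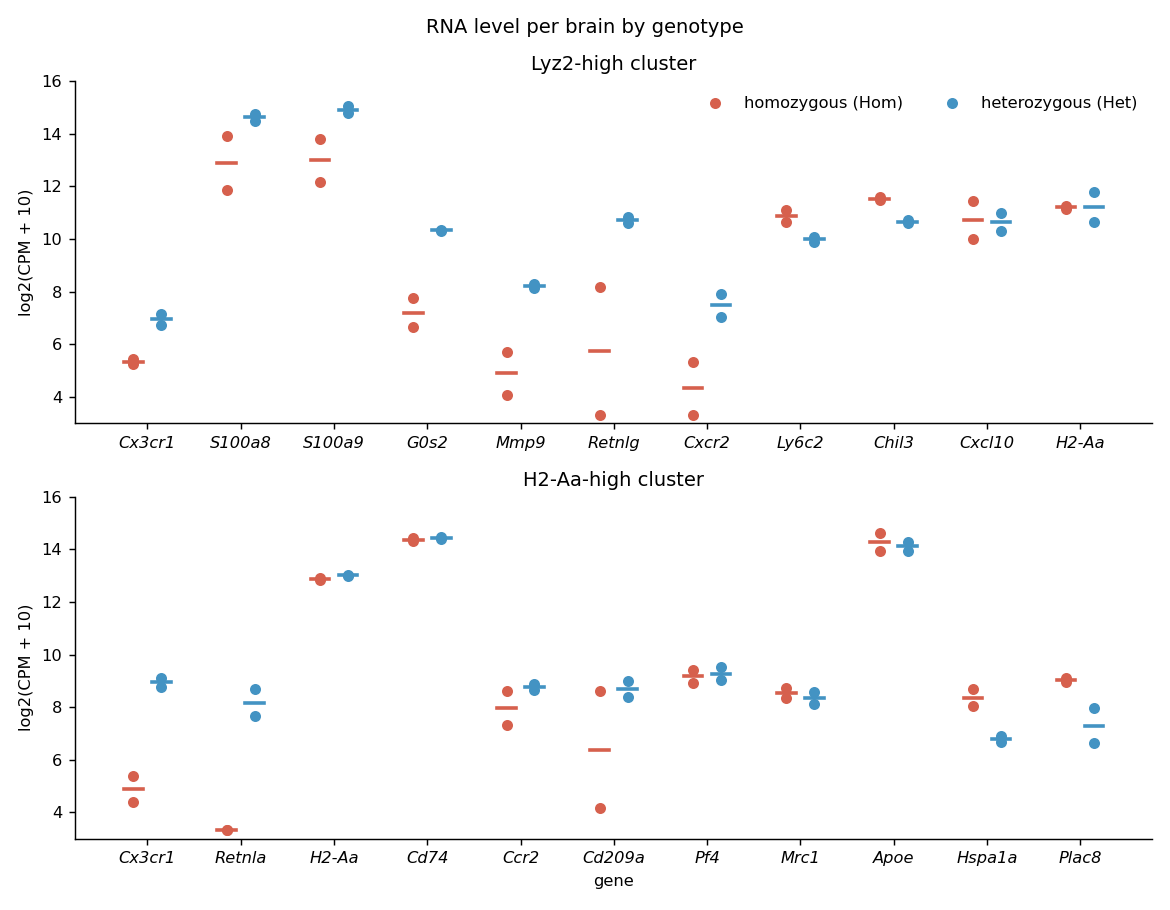
RNA per brain as log2(CPM + 10) for genes of the Lyz2-high (top) and the H2-Aa-high cluster (bottom), each point 1 brain and each bar the mean of 2 brains (Hom, Cx3cr1-/-; Het, Cx3cr1+/-). Cx3cr1 in the H2-Aa-high cluster has 31.8 and 10.99 CPM in the Cx3cr1-/- brains and 543 and 428 CPM in the Cx3cr1+/- brains, while Cd74 overlaps.

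Lyz2, Ccr2, H2-Aa and Cd74 did not pass the test between genotypes. Lyz2 had 12909 and 11167 CPM in Lyz2-high cells of the Cx3cr1-/- brains, against 11245 and 9498 CPM in those of the Cx3cr1+/- brains (0.22, SE 0.20, limma adjusted p = 0.975). Ccr2 had 366 and 505 CPM in the Cx3cr1-/- brains, against 397 and 389 CPM in the Cx3cr1+/- brains (0.13, SE 0.25, limma adjusted p = 0.975). In the H2-Aa-high cluster, H2-Aa had 7349.9 and 7705 CPM in the Cx3cr1-/- brains, against 8069 and 8424 CPM in the Cx3cr1+/- brains (-0.13, SE 0.11, limma adjusted p = 0.914), apart by a small step. Cd74 had 22049.7 and 20346 CPM in the Cx3cr1-/- brains, against 21290.1 and 22556 CPM in the Cx3cr1+/- brains (-0.05, SE 0.10, limma adjusted p = 0.953). Ccr2 of that cluster had 151 and 381 CPM in the Cx3cr1-/- brains, against 456 and 397 CPM in the Cx3cr1+/- brains (-0.80, SE 0.32, limma adjusted p = 0.894).

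Interferon and checkpoint genes of the Lyz2-high cluster were spread to both sides of 0 between genotypes. Of 20 interferon-stimulated genes 10 had positive and 10 negative differences, with none called and a median of 0.02. Cxcl10 had 1015 and 2802 CPM in the Cx3cr1-/- brains, against 1992 and 1247 CPM in the Cx3cr1+/- brains (0.10, SE 0.43, limma adjusted p = 0.992). Cd274 had 159 and 167 CPM in the Cx3cr1-/- brains, against 158 and 186 CPM in the Cx3cr1+/- brains (-0.07, SE 0.27, limma adjusted p = 0.988). Vsir, the checkpoint ligand VISTA, had 159 and 151 CPM in the Cx3cr1-/- brains, against 186 and 119 CPM in the Cx3cr1+/- brains (0.05, SE 0.30, limma adjusted p = 0.996). In the H2-Aa-high cluster Vsir had 255 and 311 CPM in the Cx3cr1-/- brains, against 321 and 239.5 CPM in the Cx3cr1+/- brains, and Cd274 was at most 22.0 CPM in any brain. Cluster 0 held more Vsir than either, 782 ± 17.2 CPM (SD, n = 4 brains).

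Other pathways of the Lyz2-high cluster had no call. The class II list was even, 5 positive and 5 negative of 10 tested. Phagocytosis and lysosome genes had 15 positive and 3 negative differences of 18, with a median of 0.27 against 0.09 over all genes. Immediate early and stress genes had 7 positive and 13 negative differences of 20, with a median of -0.07. For 7 of the 20 both Cx3cr1-/- brains were lower, beside 12.1% of all genes. Cxcl1, a neutrophil-attracting chemokine, had 75.9 and 65.9 CPM in the Cx3cr1-/- brains, against 228 and 273 CPM in the Cx3cr1+/- brains (-1.68, SE 0.28, limma adjusted p = 0.422). The rest of the 10 smallest p belonged to Il1f9 (-2.47), Gm5483 (-3.04), H2-Q10 (-2.50), Ifitm1 (-2.82), Dgat1 (-1.86) and Iglc1 (2.14), with limma adjusted p from 0.422 to 0.545.

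Markers of lymphocytes and of cycling cells were not called in the Lyz2-high cluster. For all 6 B cell markers tested both Cx3cr1-/- brains were above both Cx3cr1+/- brains (21% of all genes), and the list summed to 739 and 358 CPM there, against 132 and 273 CPM in the Cx3cr1+/- brains. All 7 T cell markers were negative (median -0.73), 2 of them lower without overlap (12.1% of all genes), and all 6 cycling markers positive (median 1.00), 3 of them higher without overlap. Their part in the genotype differences was not tested.

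In the H2-Aa-high cluster, Retnla was the call beside Cx3cr1. Retnla encodes a resistin-like protein of alternatively activated macrophages. It had 0 and 0 CPM in the Cx3cr1-/- brains, against 192 and 404 CPM in the Cx3cr1+/- brains (limma adjusted p = 2.24e-05). The Cx3cr1-/- brains had 0 of 398799 UMIs from 50 cells, and the Cx3cr1+/- brains 182 of 625362 UMIs, all from 5 of 85 cells. Pooled Retnla of the Cx3cr1+/- brains was 38.7-fold above a floor of 3 UMIs over the Cx3cr1-/- group, or 7.52 CPM. It was 25.5-fold above that floor when the second Cx3cr1+/- brain was left out. These ratios take UMIs as independent and, with all 182 UMIs in 5 cells, are no lower bound on the fall. Among well-tagged cells Retnla was at 0 in the first Cx3cr1+/- brain too and 449 CPM in the second, and the call was lost (-2.76, limma adjusted p = 0.935), as it was with no variance trend (limma adjusted p = 0.0943).

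Several genes of this cluster lay apart by genotype without passing. Plac8 had 485 and 542 CPM in the Cx3cr1-/- brains, against 90.1 and 239.5 CPM in the Cx3cr1+/- brains (1.73, SE 0.33, limma adjusted p = 0.158). Hspa1a, a heat shock chaperone, had 406 and 253 CPM in the Cx3cr1-/- brains, against 111 and 92.4 CPM in the Cx3cr1+/- brains (1.57, SE 0.29, limma adjusted p = 0.154). Ptgs2, the inducible cyclooxygenase, had 0 and 18.3 CPM in the Cx3cr1-/- brains, against 81.1 and 95.8 CPM in the Cx3cr1+/- brains (-2.54, SE 0.50, limma adjusted p = 0.158). Cxcl1 ran opposite to its difference in the Lyz2-high cluster, with 47.7 and 87.9 CPM in the Cx3cr1-/- brains, against 6.00 and 3.42 CPM in the Cx3cr1+/- brains (2.36, SE 0.47, limma adjusted p = 0.172). Glul, glutamine synthetase (1.30, limma adjusted p = 0.277), and S100a8 (-2.32, limma adjusted p = 0.394) complete the 10 smallest p. Of all genes tested in the cluster, 14.7% were lower and 21% higher in both Cx3cr1-/- brains than in both Cx3cr1+/- brains.

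Type 2 dendritic cell genes were lowest in 1 brain. Of 9 markers 8 had negative differences (median -0.82 against 0.06 over all genes), none was called, and 4 were lower in both Cx3cr1-/- brains, beside 14.7% of all genes. Cd209a had 7.95 and 381 CPM in the Cx3cr1-/- brains, against 495 and 322 CPM in the Cx3cr1+/- brains (-2.29, SE 0.85, limma adjusted p = 0.894). Mgl2 had 103 and 425 CPM in the Cx3cr1-/- brains, against 441 and 328 CPM in the Cx3cr1+/- brains, and Tnip3, an inhibitor of NF-kappaB, 7.95 and 282 CPM, against 369 and 376 CPM. The list summed to 605 and 1765 CPM in the Cx3cr1-/- brains, against 2068 and 1632 CPM in the Cx3cr1+/- brains, so the first Cx3cr1-/- brain stood apart and the second did not.

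Border macrophage genes of the cluster were split, with 4 positive and 6 negative differences of 10 and a median of -0.11. Pf4 had 668 and 479.7 CPM in the Cx3cr1-/- brains, against 507 and 736 CPM in the Cx3cr1+/- brains (-0.11, SE 0.23, limma adjusted p = 0.957). Mrc1 had 414 and 319 CPM in the Cx3cr1-/- brains, against 267 and 369.5 CPM in the Cx3cr1+/- brains (0.20, SE 0.24, limma adjusted p = 0.928). Class II genes had 3 positive and 8 negative differences of 11, with a median of -0.13 and none called. For glycolysis 10 of 11 genes were negative, with a median of -0.54 against 0.06 over all genes and none called. For 8 of the 11 both Cx3cr1-/- brains were lower, beside 14.7% of all genes. Pkm, pyruvate kinase, had 127 and 187 CPM in the Cx3cr1-/- brains, against 243 and 287 CPM in the Cx3cr1+/- brains (-0.74, SE 0.27, limma adjusted p = 0.894).

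Markers of plasmacytoid dendritic cells, B cells and microglia had mostly positive differences in the H2-Aa-high cluster, and none was called. All 8 plasmacytoid markers had positive differences (median 0.90), 5 of them higher without overlap beside 21% of all genes, and summed to 2601 and 3625 CPM in the Cx3cr1-/- brains, against 1264 and 1967 CPM in the Cx3cr1+/- brains. Ly6d, a surface antigen of lymphoid and plasmacytoid cells, had 406 and 904 CPM in the Cx3cr1-/- brains, against 63.0 and 249.8 CPM in the Cx3cr1+/- brains (2.16, SE 0.45, limma adjusted p = 0.214). All 6 B cell markers tested were positive (median 1.60), 5 of them higher without overlap, and summed to 1328 and 461 CPM in the Cx3cr1-/- brains, against 258 and 198 CPM in the Cx3cr1+/- brains. Of 10 microglia markers 9 had positive differences (median 0.52 against 0.06 over all genes), and 3 were higher without overlap, beside 21% of all genes. Siglech stands in both the microglia and the plasmacytoid list. Igkc, the kappa light chain, had 573 and 76.9 CPM in the Cx3cr1-/- brains, against 27.0 and 0 CPM in the Cx3cr1+/- brains (3.55, SE 0.70, limma adjusted p = 0.158). Whether cells of these kinds or free RNA brought the UMIs in was not tested.

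Last, the genotype difference of both clusters together was set against that of cluster 0 in the same brains. Of 6579 genes 4 passed (0.0608%), 2 in each direction, with 326 at an unadjusted p under 0.05. Without either Cx3cr1+/- brain, with all deposited cells or without a variance trend none passed, and 46 and 140 passed without the first and the second Cx3cr1-/- brain. The genotype difference of Cx3cr1 was smaller in these clusters than in cluster 0 (difference of log2 differences 1.54, SE 0.23, limma adjusted p = 0.0110). With well-tagged cells of the clusters that was lost (0.53, limma adjusted p = 0.642). In this comparison only the clusters were cut to well-tagged cells, and cluster 0 kept all its cells, 172 of 1234 of them well-tagged. S100a9 was relatively lower in the Cx3cr1-/- brains within the clusters (-2.70, SE 0.50, limma adjusted p = 0.0416, and -6.94 with limma adjusted p = 5.57e-07 with well-tagged cells of the clusters). In both clusters together its own genotype difference was smaller and did not pass (-1.73, limma adjusted p = 0.293). The rest of the -2.70 came from cluster 0, where S100a9 went the other way and only 6.00% of cells held its UMIs. The value of -2.70 rests on single brains, being -4.13 without the first and -1.27 without the second Cx3cr1-/- brain, and S100a9 was called in 6 of 14 settings. It was not called with all deposited cells (-2.16, limma adjusted p = 0.998), without the variance trend (limma adjusted p = 0.954) or without the first (limma adjusted p = 0.483) or the second Cx3cr1+/- brain (limma adjusted p = 0.278). In well-tagged Lyz2-high cells the neutrophil list summed to 167 CPM in the first Cx3cr1-/- brain, from 9 cells, and 63586 CPM in the second, against 86265 and 170711 CPM in the Cx3cr1+/- brains.

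H2-Q10, a nonclassical class I gene, had 7.39 and 15.6 CPM in both clusters together in the Cx3cr1-/- brains, against 87.2 and 47.1 CPM in the Cx3cr1+/- brains. In cluster 0 it had 23.1 and 21.1 CPM in the Cx3cr1-/- brains, against 15.9 and 13.8 CPM in the Cx3cr1+/- brains, and the 2 differences were unlike (-2.19, SE 0.38, limma adjusted p = 0.0304). Clec4a3, a C-type lectin, had 303 and 473 CPM in both clusters together in the Cx3cr1-/- brains, against 244 and 184 CPM in the Cx3cr1+/- brains. In cluster 0 it had 48.0 and 68.9 CPM in the Cx3cr1-/- brains, against 97.3 and 90.0 CPM in the Cx3cr1+/- brains (1.42, SE 0.25, limma adjusted p = 0.0304). With well-tagged cells of the clusters against all cells of cluster 0, H2-Q10 held (-2.44, limma adjusted p = 0.00182) and Clec4a3 did not (1.19, limma adjusted p = 0.0938).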

How the data were processed

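The deposited naive table held natural log values, which from the values themselves are the natural log of 1 plus a depth-corrected UMI count. Alignment used Cell Ranger 3.1 and Seurat 3.1.1 on mm10, per the submitters' processing notes. The deposited cell table gave raw UMI counts per cell, the hashtag margin score, clusters and surface gates. Corrected UMIs were summed per cluster and brain, scaled to CPM, and tested as log2(CPM + 10) with limma 3.58.1 (eBayes with a variance trend) in R 4.3.3, for genes with a mean of at least 10 CPM, with Benjamini-Hochberg adjustment over all genes tested and a threshold of 0.05. Sums are not raw counts, so no count model was run. The members, gene lists (17 pathway and 22 marker lists) and rules were chosen with earlier results of these data known. Named genes are Cx3cr1, Lyz2, Ccr2, H2-Aa, Cd74, 15 leading genes of each cluster (UMIs in at least 25% of its cells), calls or the 10 smallest p, up to 4 genes per list by p and by level, Cxcl10, Vsir and Cd274. Well-tagged cells, cells under 20000 UMIs and the comparison of gates were added after seeing the data. The fits were tested on simulated data. Total corrected UMIs per brain were 144860 to 622082 in the Lyz2-high and 125716 to 333112 in the H2-Aa-high cluster. No doublets were called here. Alternatives were pseudocounts of 1 and 50 CPM, a minimum of 50 CPM or none, median-ratio scaling, cells weighted alike, no trend, all deposited cells and each brain left out. Python 3.11.15, numpy 2.4.6, pandas 2.3.3, scipy 1.17.1 and matplotlib 3.10.9 were used.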

Additional observations from a re-analysis of the deposited data

Results flagged for a closer look

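For 4 genes the genotype difference in the member clusters differed from that in cluster 0 of the same brains, by a test of the difference itself. The difference of log2 differences was -2.70 for S100a9 (limma adjusted p = 0.0416) and -2.19 for H2-Q10 (limma adjusted p = 0.0304), both lower in the Cx3cr1-/- brains within the clusters. S100a9 did not pass in both clusters together (-1.73, limma adjusted p = 0.293), and part of its -2.70 came from cluster 0, where 6.00% of cells held its UMIs. The difference of log2 differences was 1.42 for Clec4a3 (limma adjusted p = 0.0304). For Cx3cr1 it was 1.54 (limma adjusted p = 0.0110), the fall in the Cx3cr1-/- brains being the smaller in the clusters, where the Cx3cr1+/- level was also the lower. These calls depended on the setting. Of 14 other settings, S100a9 and Clec4a3 were called in 6, Cx3cr1 in 7 and H2-Q10 in 8. None of the 4 was called with all deposited cells, without a variance trend or with a pseudocount of 1 CPM. With well-tagged cells of the clusters, Cx3cr1 (limma adjusted p = 0.642) and Clec4a3 (limma adjusted p = 0.0938) were not called.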

How the results depend on the processing

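Over the settings of single genes and of each cluster's share, 734 values were counted as unchanged and 67 passed where the reported setting did not. A further 74 did not pass where it did, and 4, all of the Lyz2-high share, were counted as changed in sign. For a gene, unchanged meant the same side of the threshold, and a change of sign between values that did not pass was not counted. For a share it meant the same sign, whatever the size. Over the counts of calls, gate shares, levels and the share of both clusters, 75 stayed close or, for shares, kept their sign, 56 moved and 3 changed sign. For both clusters together, the 2 calls became 0 in Lyz2-high cells only, 10 in cells of the authors' myeloid gates, 5 with cells weighted alike, 1 above a mean of 50 CPM, 4 without a filter, 4 with a pseudocount of 50 CPM, 6 under 20000 raw UMIs and 20 in well-tagged cells. With single brains left out they ranged from 4 to 256. For the Lyz2-high cluster, the 0 calls became 1 with all deposited cells, 1 with cells weighted alike, 2 with a pseudocount of 50 CPM, 2 under 20000 raw UMIs and 5 in well-tagged cells, and 18 to 76 with single brains left out. These were 71 and 76 without the first and second Cx3cr1-/- brain and 18 and 23 without the first and second Cx3cr1+/- brain. For the H2-Aa-high cluster, the 2 calls became 4 with all deposited cells, 8 without a filter and 0 without the variance trend. With single brains left out they ranged from 17 to 175, with 27 and 175 without the first and second Cx3cr1-/- brain and 21 and 17 without the first and second Cx3cr1+/- brain. For the difference from cluster 0, the 4 calls became 0 with all deposited cells, 2 above 50 CPM, 2 with median-ratio scaling, 12 without a filter, 0 without the trend, 0 with a pseudocount of 1 CPM, 2 under 20000 raw UMIs and 42 in well-tagged cells. The cuts on raw UMIs and on tagging were made in the member clusters and not in cluster 0. Single brains left out gave 0 to 140, with 46 and 140 without the first and second Cx3cr1-/- brain and 0 without either Cx3cr1+/- brain. For the gates, the 9 calls became 75 with all deposited cells, 18 with cells weighted alike, 0 above 50 CPM, 19 with median-ratio scaling, 45 without a filter, 0 without the trend, 1 and 29 with pseudocounts of 1 and 50 CPM and 19 in well-tagged cells, and 0 to 350 with single brains left out. The cause of these changes was not tested. The difference in share of both clusters, -1.61 points, ranged from -4.50 to 1.29 with single brains left out and turned positive without the second Cx3cr1+/- brain, and was -4.48 points outside cluster 0. That of Lyz2-high cells, 0.218 points, became -0.512 among cells outside cluster 0, -0.644 in well-tagged cells, -1.07 without the second Cx3cr1-/- brain and -1.30 without the first Cx3cr1+/- brain, the highest being 1.74 without the second. That of the border macrophage gate, -1.15 points, ranged from -8.14 to 5.83, and became 5.83 without the second Cx3cr1-/- brain and 0.515 without the first Cx3cr1+/- brain. In well-tagged cells Lyz2 had 14507 CPM and S100a8 29174 CPM in the Lyz2-high cluster, with Ccr2 at 294 CPM, and the H2-Aa-high cluster had 8505 CPM of H2-Aa and 23097 CPM of Cd74. No paired analysis was possible because the hashtags give the brains of both genotypes no shared number. With 16 to 69 cells per cluster and brain, and 6 to 19 per gate and brain in the comparison of gates, low genes could not be measured firmly.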
